A study of Homo sapiens with 12 samples.

Results

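The human mitochondrial genome encodes 37 genes, and all of them were present in the deposited RNA-seq table of control and HCP5-silenced esophageal cancer cells. They were chosen as the rows whose first chromosome entry is MT, 37 of 38516 genes. They comprise 13 protein genes, 2 ribosomal RNA (rRNA) genes and 22 transfer RNA (tRNA) genes. All 37 passed the filter on low values.

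The cells were KYSE150 and KYSE510, established lines of esophageal squamous cell carcinoma (ESCC), both grown in RPMI-1640 medium with fetal bovine serum. The 4 groups were KYSE150 control, KYSE150 HCP5 silenced, KYSE510 control and KYSE510 HCP5 silenced, with 3 libraries each. HCP5 is a long non-coding RNA gene. The silencing and control reagents, whether replicates were separate cultures, and any selection of poly(A) RNA or removal of rRNA are not given in the sources used here, so p-values measure the spread between these libraries, which may be technical.

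Mitochondria keep their own circular genome, which is transcribed from both strands into long precursors. The tRNAs lie between most of the other genes, and cutting them out releases the rRNAs and messenger RNAs. The proteins are core subunits of respiratory complexes I, III and IV and of the ATP synthase, the rRNAs build the mitochondrial ribosome, and the tRNAs serve translation inside the organelle. Levels of the mature RNAs then depend on transcription, on cutting and on how long each RNA lasts.

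Depth was 20035025 to 28202422 reads assigned to genes per library, and in KYSE150 every silenced library was deeper than every control. HCP5 was at 0.745 to 0.786 RPKM (reads per kilobase of exon, scaled to the assigned reads of the library) in KYSE150 controls and at 0.315 to 0.579 in silenced libraries. In KYSE510 it was at 0.914 to 1.85 in controls and at 0.505 to 0.951 in silenced libraries. It was lower in 3 of 3 same-numbered pairs of each line but did not pass the test (limma adjusted p = 0.267 in KYSE150 and 0.646 in KYSE510). Of 10 squamous epithelial markers, 9 were at 1 RPKM or more in every library. So were 3 of 4 simple epithelial markers (KRT8, KRT18 and EPCAM) and 1 of 5 leukocyte markers (CD68). Under 1 in every library were 6 of 6 fibroblast markers, 4 of 5 leukocyte markers and 2 of 3 endothelial markers. KYSE150 control replicate 3 stood apart from the other controls of its line for many mitochondrial genes, so results that rest on it are given with and without it.

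Sequences are from GENCODE release 29 on GRCh38, written as DNA in the sense of the RNA, and the positions of 37 of 37 genes matched that annotation. The first set holds the 6 tRNA genes that differed most between the control lines, with MT-TK. MT-TK is the tRNA gene of highest mean RPKM over all 12 libraries and widest spread between replicates. Capitals mark the anticodon, the 3 bases that read the codon. The first 3 and MT-TK are transcribed to the plus strand of the reference and the others to its minus strand.
MT-TF, phenylalanine, MT:577-647, plus: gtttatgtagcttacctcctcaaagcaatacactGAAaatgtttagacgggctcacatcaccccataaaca
MT-TI, isoleucine, MT:4263-4331, plus: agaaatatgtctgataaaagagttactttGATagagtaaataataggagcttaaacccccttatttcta
MT-TT, threonine, MT:15888-15953, plus: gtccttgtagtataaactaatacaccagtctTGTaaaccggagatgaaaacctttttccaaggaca
MT-TN, asparagine, MT:5657-5729, minus: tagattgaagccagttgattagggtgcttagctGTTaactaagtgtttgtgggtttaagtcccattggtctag
MT-TC, cysteine, MT:5761-5826, minus: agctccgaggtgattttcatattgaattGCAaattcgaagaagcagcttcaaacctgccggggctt
MT-TY, tyrosine, MT:5826-5891, minus: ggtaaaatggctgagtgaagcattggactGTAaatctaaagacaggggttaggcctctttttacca
MT-TK, lysine, MT:8295-8364, plus: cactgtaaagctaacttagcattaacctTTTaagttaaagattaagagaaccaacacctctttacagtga

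Of the 37 genes, 5 pairs of neighbours share bases, and the longest overlaps are those of the 2 bicistronic messages. MT-ATP8 and MT-ATP6 share 46 bases, 22.2% of MT-ATP8. MT-ND4L and MT-ND4 share 7 bases. The capitals below mark the shared bases, with 20 bases on either side. How reads in shared bases were counted is not given in the sources used here, so the values of both genes of a pair are uncertain to that extent.
MT-ATP8/MT-ATP6, MT:8507-8592, plus: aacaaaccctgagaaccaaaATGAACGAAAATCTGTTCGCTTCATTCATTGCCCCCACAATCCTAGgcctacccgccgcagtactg
MT-ND4L/MT-ND4, MT:10740-10786, plus: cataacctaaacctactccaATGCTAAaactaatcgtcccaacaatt
The other overlaps are 3 bases between MT-TI and MT-TQ on opposite strands, 1 base between MT-TC and MT-TY, and 1 base between MT-ATP6 and MT-CO3. The strands differ in composition. The 12 protein genes of the plus strand hold at least 29.5% C and 6.28% to 16.2% G, while MT-ND6, the protein gene of the minus strand, holds 7.05% C and 35.6% G. Whether counting used strand is not given in the sources used here, so reads of MT-ND6 and of the 8 minus-strand tRNA genes cannot be told apart from reads of the opposite strand.

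The genes of highest mean RPKM were mitochondrial, though not every mitochondrial gene was among them. Ranked by mean RPKM over the 12 libraries, positions 1 to 16 of all 38516 genes were held by mitochondrial genes. MT-ATP8, a small subunit of the ATP synthase, led with a mean of 24640 RPKM, and MT-ATP6, the membrane subunit whose message it shares, came next with 21910. MT-CO3, a subunit of cytochrome c oxidase (complex IV), had 14750. The complex I subunits MT-ND4L, MT-ND4 and MT-ND1 followed at 8099, 7514 and 7248. The order of MT-ATP8 and MT-ATP6 was not fixed, since MT-ATP6 had the higher mean in KYSE510 controls (25830 ± 3002 against 25260 ± 1052, SD, n = 3).

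The remaining protein genes lay closer together. MT-CO2 had 6500 RPKM, MT-ND6 5550, MT-CO1 4723, MT-CYB 4569, MT-ND2 4446 and MT-ND5 4426, and MT-ND3 was lowest of the 13 at 2861. MT-CYB, the mitochondrial subunit of complex III, varied least in RPKM, with 4292 to 4885 over all 12 libraries, a ratio of 1.14. As a share of mitochondrial reads MT-CYB did separate the lines, at 5.80% to 7.12% in KYSE150 and 4.48% to 5.10% in KYSE510. The large rRNA MT-RNR2 had a mean of 4416 RPKM and the small rRNA MT-RNR1 540.7, although each ribosome holds both in equal number.

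**Figure D1:**
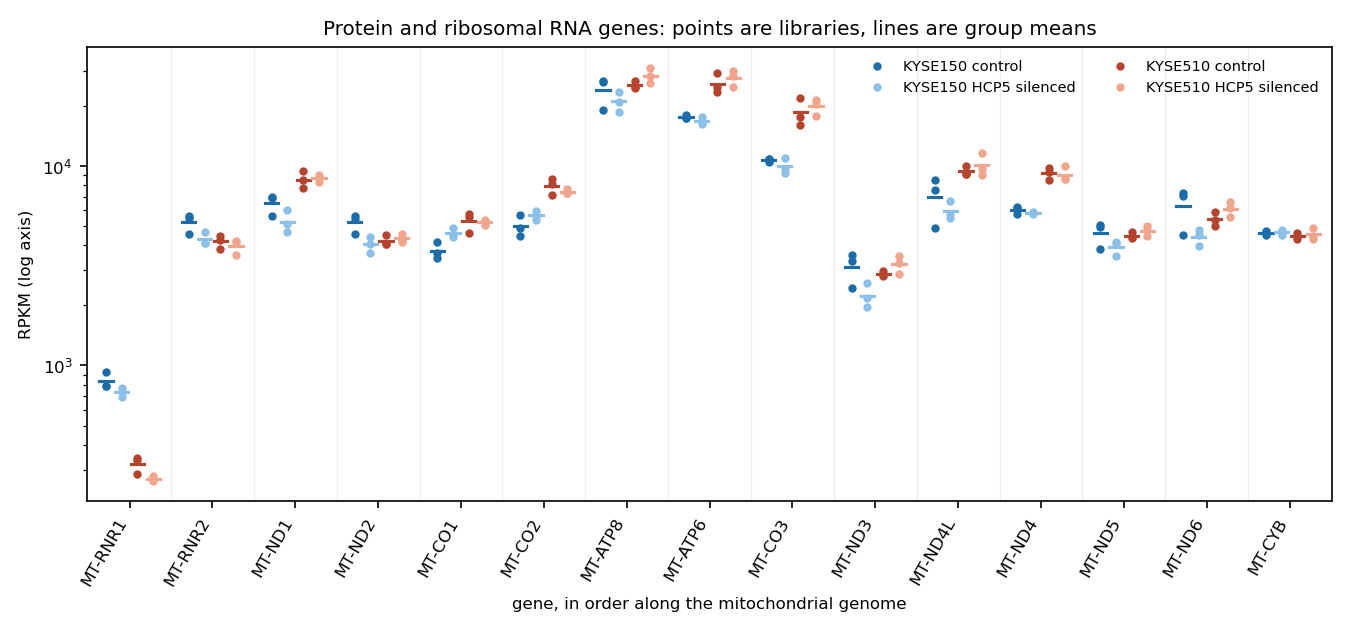
RPKM (log axis) of the 13 protein and 2 rRNA genes, in order along the mitochondrial genome; points are libraries, short lines are means of 3 libraries, and colours are the 4 groups. MT-RNR1 lies at 693 to 931 RPKM in all 6 KYSE150 libraries and at 265 to 342 in all 6 KYSE510 libraries. MT-CYB is nearly level on this scale.

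The tRNA genes are 59 to 75 bases long and spanned a wide range of RPKM. Reads of mature tRNAs and of uncut precursors cannot be told apart in these values. Values of tRNA genes throughout are therefore not levels of mature tRNA alone. The highest means over the 12 libraries were those of MT-TK (6578 RPKM), MT-TC (5738) and MT-TY (5097). That order differed by line, since in KYSE510 controls MT-TC (8642) and MT-TY (7680) were above MT-TK (4831). The lowest were those of MT-TP, for proline (238.6), MT-TQ, for glutamine (159.5), and MT-TM, for methionine (112.3). The lowest count behind any of these levels was 110 reads for MT-TM in KYSE510 silenced replicate 1, which gives 67.4 RPKM with an exact 95% Poisson interval of 55.4 to 81.3. That interval covers counting error only.

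Replicates of a group differed more for tRNAs than for messages. The median SD within groups on the log2(RPKM + 0.5) scale was 0.14 for the 13 protein genes and 0.24 for the 22 tRNA genes. It was 0.17 over all genes tested and 0.15 over the 361 other genes at least as abundant as MT-TM. MT-TK had the widest spread, with an SD of 0.80. KYSE150 controls had 11679, 9790 and 2998 RPKM of MT-TK and silenced libraries 6103, 3223 and 2105, so the third library was lowest in both groups. KYSE510 controls had 7794, 3565 and 3135 and silenced libraries 9894, 12755 and 5899.

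**Figure D2:**
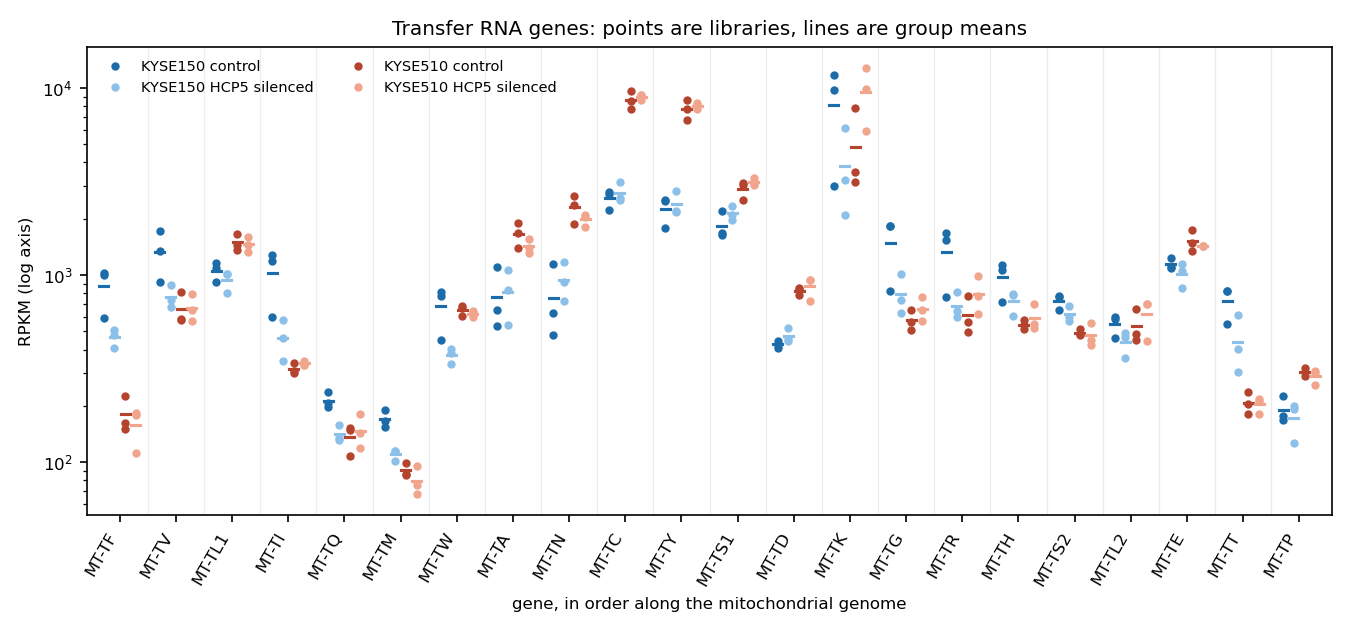
RPKM (log axis) of the 22 tRNA genes, in order along the mitochondrial genome; points are libraries, short lines are means of 3 libraries, and colours are the 4 groups. MT-TC and MT-TY separate the lines without overlap (at most 3142 and 2816 in KYSE150, at least 7699 and 6721 in KYSE510), and MT-TF separates them the other way.

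Mitochondrial genes took a larger share of reads in KYSE510 than in KYSE150. The share was 8.85%, 8.91% and 7.86% in KYSE150 controls and 8.19%, 7.68% and 7.49% in silenced libraries. It was 11.0%, 10.4% and 10.2% in KYSE510 controls and 10.9%, 11.5% and 10.3% in silenced libraries. The lines did not overlap, while the control and silenced ranges overlapped within each line. In KYSE150 the silenced library was the lower one in each of the 3 pairs.

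The make-up of those reads also differed by line. The 2 rRNA genes held 9.27% to 10.7% of mitochondrial reads in KYSE150 and 5.08% to 6.82% in KYSE510. The protein genes held 86.7% to 88.9% and 90.7% to 92.2%, and the tRNA genes 1.77% to 2.66% and 2.34% to 2.72%. MT-ATP6 alone held 13.3% to 18.1% of mitochondrial reads. RPKM is scaled to all assigned reads, so these shares enter every level. In bulk RNA, fewer cells with an RNA and less of it per cell cannot be told apart.

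The comparison of the control groups asks how the 2 lines differ without silencing. By limma, 29 of 37 mitochondrial genes differed at an adjusted p under 0.05, called below, and that is 78.4% of them against 62.0% of all 17823 genes tested. Of these, 16 were higher in KYSE510, where 28.3% of all genes were, and 13 were lower, where 33.7% of all genes were. The control libraries of the lines did not overlap for 28 of the 37, against 64.0% of all genes. For most called genes the direction went with class and, among tRNA genes, with the annotated strand. Of the 14 plus-strand tRNA genes 9 were lower and 2 higher, of the 8 minus-strand tRNA genes 7 were higher and 1 lower, and of the 13 protein genes 7 were higher and 1 lower. Both rRNA genes were lower.

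**Figure D3:**
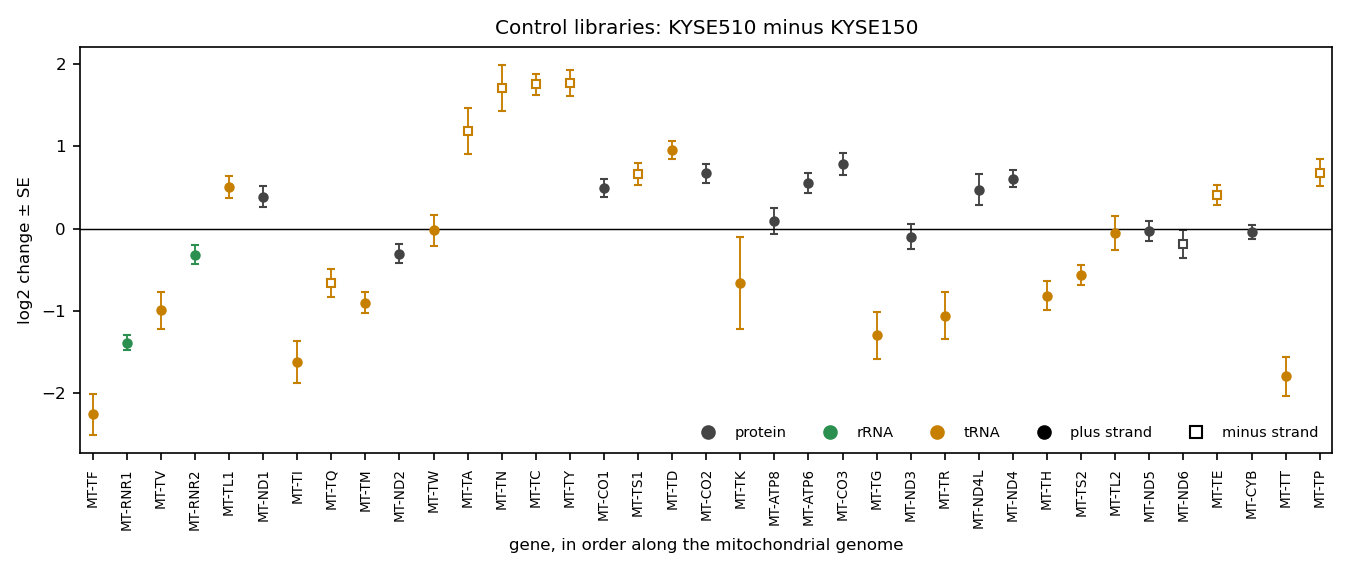
Log2 difference of KYSE510 controls from KYSE150 controls on the log2(RPKM + 0.5) scale for the 37 genes, in order along the mitochondrial genome; bars are limma standard errors, circles are plus-strand and open squares minus-strand genes, and colours are the classes. MT-TF is lowest (-2.25) and MT-TY highest (1.77), and 4 adjacent minus-strand tRNA genes stand between 1.18 and 1.77.

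MT-RNR1, the small rRNA, had the largest difference among the longer genes. KYSE150 controls had 787, 793 and 931 RPKM and KYSE510 controls 286, 342 and 334. The log2 difference was -1.38 (SE 0.09, limma adjusted p = 2.21e-07). MT-RNR2, the large rRNA, had 5588, 5484 and 4569 in KYSE150 and 4451, 3832 and 4262 in KYSE510, a difference of -0.32 (SE 0.12, limma adjusted p = 0.0341). The groups did not overlap for either gene, and the KYSE150 value nearest to KYSE510 for MT-RNR2 was that of control replicate 3.

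The ratio of the rRNAs therefore separated the lines. MT-RNR2 over MT-RNR1 was 7.10, 6.91 and 4.91 in KYSE150 controls and 6.76, 5.28 and 5.57 in silenced libraries. It was 15.6, 11.2 and 12.7 in KYSE510 controls and 13.5 to 15.6 in the 3 silenced libraries. The lowest KYSE510 library was above the highest KYSE150 library. MT-ND1, the complex I gene just after MT-RNR2, had 1.15 to 1.28 times the RPKM of MT-RNR2 in the 6 KYSE150 libraries and 1.98 to 2.32 times in the 6 KYSE510 libraries.

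**Figure D4:**
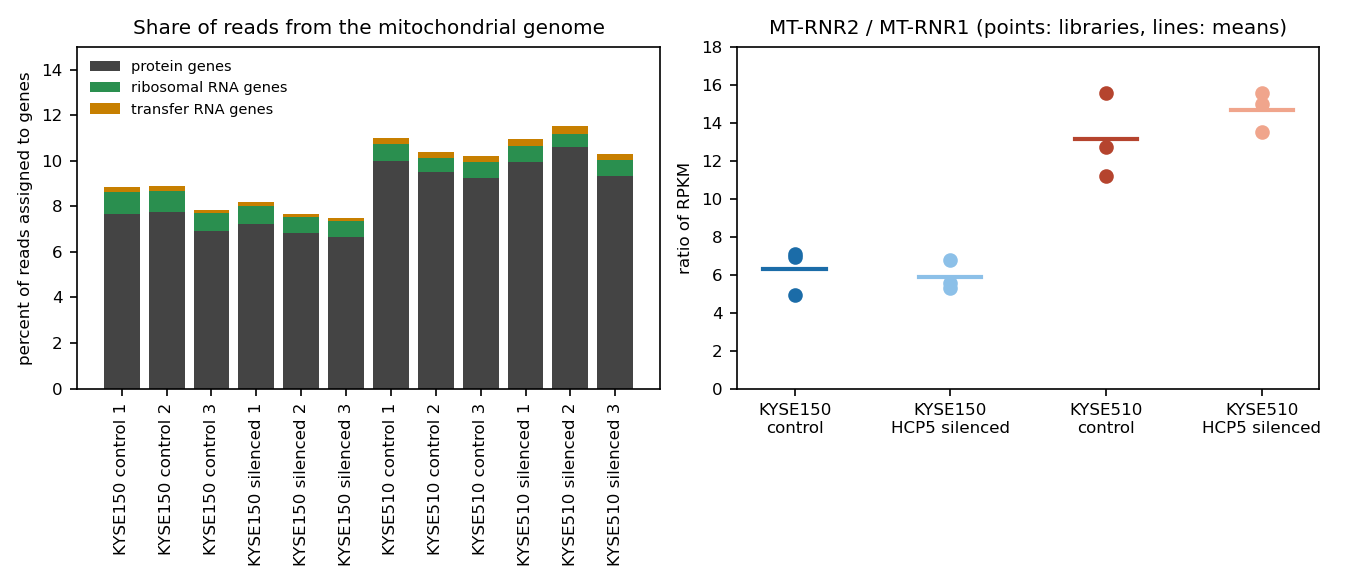
Left, percent of reads assigned to genes that fell on the mitochondrial genome in each library, stacked by class; right, the RPKM of MT-RNR2 over that of MT-RNR1, with points for libraries and lines for means of 3. The stacks reach 7.49% to 8.91% in KYSE150 and 10.2% to 11.5% in KYSE510, and the ratio is 4.91 to 7.10 and 11.2 to 15.6.

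Along the first genes of the rRNA region, the log2 differences went from low to near 0 by position. MT-TF (MT:577-647) stood at -2.25, MT-RNR1 (MT:648-1601) at -1.38, MT-TV, for valine (MT:1602-1670), at -0.99, and MT-RNR2 (MT:1671-3229) at -0.32. MT-TL1, a leucine tRNA (MT:3230-3304), stood at 0.50 and MT-ND1 (MT:3307-4262) at 0.39, so the last pair did not continue the order. All 6 were called, but leaving out 1 control library ended the call of MT-RNR2 for 4 of the 6 libraries (-0.25 without KYSE510 control replicate 2). MT-TI, the next gene, stood at -1.61.

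Among plus-strand tRNAs the largest differences were in MT-TF, MT-TT and MT-TI. MT-TF had 1026, 1003 and 592 RPKM in KYSE150 controls and 163, 151 and 227 in KYSE510 controls (-2.25, SE 0.25, limma adjusted p = 1.20e-05). MT-TT had 818, 825 and 547 against 205, 238 and 181 (-1.79, SE 0.23, limma adjusted p = 4.60e-05). MT-TI had 1276, 1188 and 597 against 340, 300 and 309 (-1.61, SE 0.25, limma adjusted p = 0.000190). Control replicate 3 of KYSE150 was the lowest of its group for all 3 tRNAs and still above every KYSE510 control. Without it the differences were larger, at -2.51, -1.99 and -1.96. The silenced groups, which these differences did not use, also kept apart for MT-TF, with 478, 510 and 407 RPKM in KYSE150 and 179, 111 and 184 in KYSE510. They did not overlap for MT-TT either, but for MT-TI they did, with a low of 348 in KYSE150 and a high of 349 in KYSE510.

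Minus-strand tRNAs went the other way. MT-TA, MT-TN, MT-TC and MT-TY, for alanine, asparagine, cysteine and tyrosine, lie side by side between MT:5587 and MT:5891. MT-TC had 2793, 2704 and 2217 RPKM in KYSE150 controls and 7699, 8573 and 9654 in KYSE510 controls (1.75, SE 0.13, limma adjusted p = 4.63e-07). MT-TY had 2521, 2497 and 1786 against 6721, 7682 and 8637 (1.77, SE 0.16, limma adjusted p = 1.96e-06). MT-TN had 626, 478 and 1145 against 1880, 2365 and 2652 (1.70, SE 0.28, limma adjusted p = 0.000257), and MT-TA was 1.18 higher (SE 0.28, limma adjusted p = 0.00296). MT-TW, the tryptophan tRNA of the opposite strand just before this cluster, was -0.02 (SE 0.18) and was not called. MT-TQ, also of the minus strand, went against the other minus-strand tRNAs at -0.66 (SE 0.17, limma adjusted p = 0.00474).

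The remaining called tRNA genes differed by less than MT-TI. On the plus strand these were MT-TG for glycine (-1.30), MT-TR for arginine (-1.06), MT-TM (-0.90), MT-TH for histidine (-0.81), MT-TS2 for serine (-0.56), and, higher, MT-TD for aspartate (0.96). On the minus strand MT-TP was 0.68 higher, MT-TS1, the other serine tRNA, 0.66 and MT-TE for glutamate 0.41, the last not called without KYSE510 control replicate 3 (0.31, limma adjusted p = 0.0546). MT-TK (-0.66, SE 0.56) and MT-TL2, the other leucine tRNA (-0.05, SE 0.21), were not called, but without KYSE150 control replicate 3 the difference of MT-TK was -1.27 and was called (limma adjusted p = 0.0447). Without that library MT-TW (-0.29, limma adjusted p = 0.0185) and MT-ND6 (-0.41, limma adjusted p = 0.0122) were also called lower. The control libraries of the lines overlapped for MT-TR.

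Protein genes differed by less, and mostly upward. All 3 complex IV genes were higher in KYSE510, namely MT-CO3 by 0.78 (SE 0.14), MT-CO2 by 0.67 (SE 0.11) and MT-CO1 by 0.49 (SE 0.11). Of 22 alternatives, the call was lost in 2 for MT-CO3, 1 for MT-CO2 and 3 for MT-CO1. The lowest differences among the alternatives were 0.24, 0.25 and 0.19. MT-CO3 had 10845, 10769 and 10418 RPKM in KYSE150 controls and 21967, 17586 and 16038 in KYSE510 controls (limma adjusted p = 0.000410). MT-ATP6 was 0.55 higher (SE 0.12, call lost in 2 alternatives), but MT-ATP8 was not called (0.09, SE 0.15). As a result MT-ATP8 over MT-ATP6 was 1.51, 1.48 and 1.10 in KYSE150 controls and 0.907, 0.994 and 1.05 in KYSE510 controls, without overlap.

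Complex I genes did not move as one. MT-ND4 was 0.61 higher in KYSE510 (SE 0.10), MT-ND4L 0.47 (SE 0.19) and MT-ND1 0.39 (SE 0.13). Without KYSE150 control replicate 3 neither MT-ND4L (0.23, limma adjusted p = 0.156) nor MT-ND1 (0.29, limma adjusted p = 0.0712) was called. Over the 22 alternatives MT-ND4L lost its call in 15, MT-ND1 in 8 and MT-ND4 in 2. MT-ND2 was lower (-0.30, SE 0.11, limma adjusted p = 0.0324), and MT-ND3 (-0.10), MT-ND5 (-0.03) and MT-ND6 (-0.19) were not called, nor was MT-CYB of complex III (-0.05, SE 0.09). The call of MT-ND2 was also lost in 8 alternatives, among them without KYSE150 control replicate 2 (-0.25, limma adjusted p = 0.111). MT-CO1 over MT-ND2 was 0.675, 0.617 and 0.908 in KYSE150 controls and 1.02, 1.36 and 1.41 in KYSE510 controls, without overlap.

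The scale changed how many genes were called in each direction, but not the side of 0 of any called gene. With values scaled to mitochondrial reads alone, which shifts the median of all genes from -0.07 to -0.31, 9 mitochondrial genes were called higher and 17 lower, beside 18.3% and 44.0% of all genes. With quantile normalization 8 were higher and 15 lower, beside 29.7% and 34.8%. With no filter 10 were higher and 11 lower, beside 16.7% and 17.6%. Under every scaling tried, 7 of the 8 minus-strand tRNA genes lay above 0 and at least 11 of the 14 plus-strand tRNA genes below. Of the 29 calls, 16 held in all 22 alternatives, those of MT-RNR1 and 15 tRNA genes, while 13 were lost in at least 1 and none changed sign.

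Silencing of HCP5 in KYSE150 was the next comparison. By limma, 0 of 37 mitochondrial genes were called, against 0.499% of all genes, and 16 had an unadjusted p under 0.05, against 18.1%. The voom model on read counts also called 0. The values leaned downward, with 28 of 37 changes below 0 and a median of -0.22 on the log2 scale against 0.08 over all genes. In same-numbered pairs 22 were lower in 3 of 3, as were 13.7% of all genes, and 5 were higher in 3 of 3, as were 37.4% of all genes. For 8 genes every silenced library was below every control, against 5.47% of all genes, and for 2, MT-CO1 and MT-TD, every silenced library was above every control, against 13.7%. An exact two-sided permutation test of 3 against 3 libraries cannot go below p = 0.1. Counts of genes here and in the other comparisons rest on the same few libraries. Genes that share precursors are also not independent observations.

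**Figure D5:**
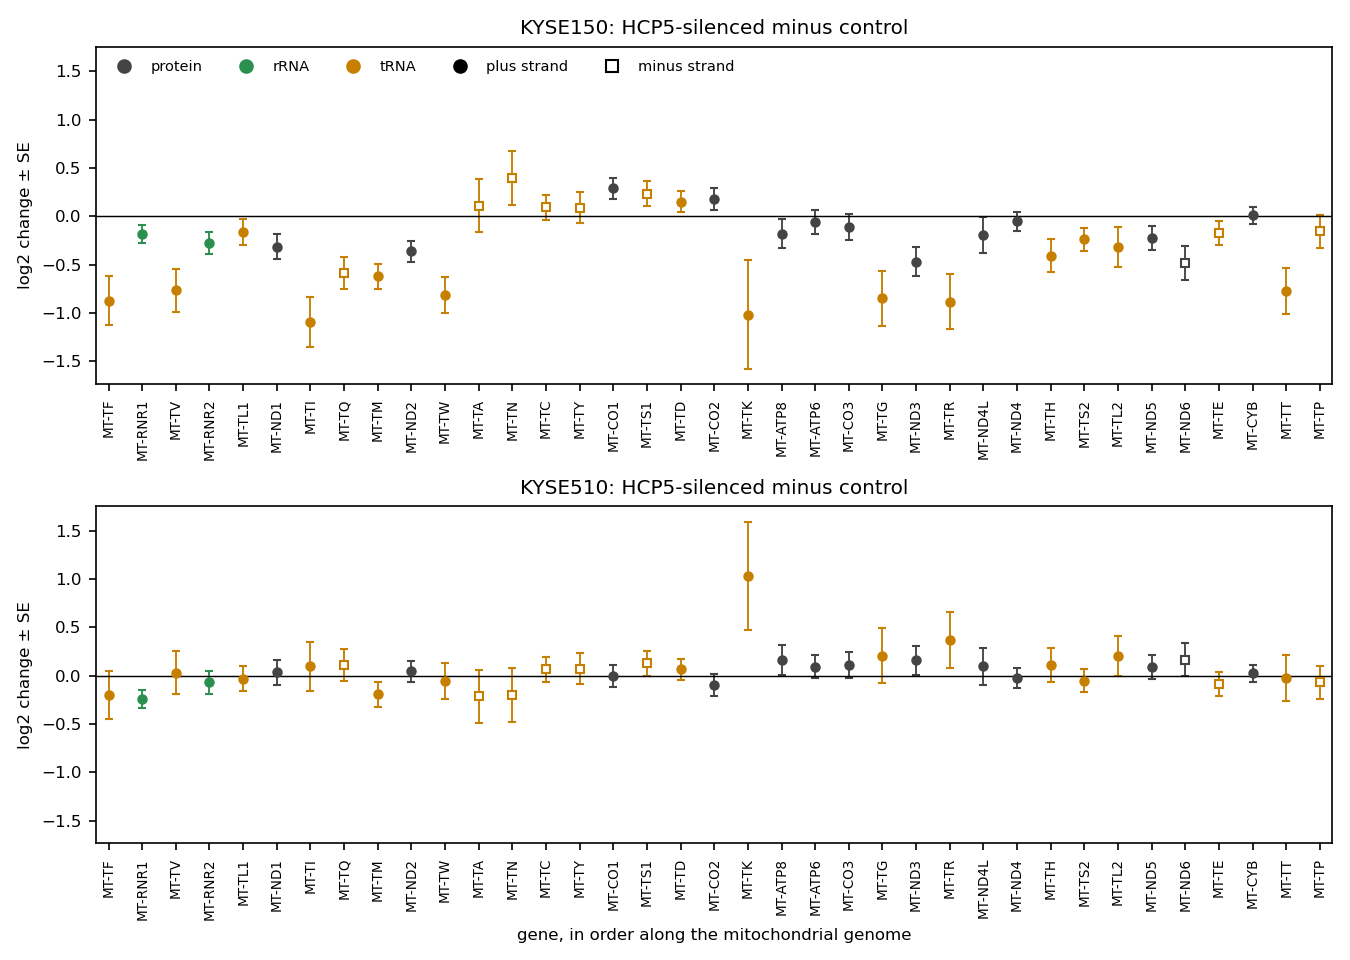
Log2 change of HCP5-silenced from control libraries on the log2(RPKM + 0.5) scale for the 37 genes in order along the mitochondrial genome, KYSE150 above and KYSE510 below; bars are limma standard errors, circles plus-strand and open squares minus-strand genes. In KYSE150 the plus-strand tRNA genes reach down to -1.09. In KYSE510 every change except that of MT-TK (1.03) lies between -0.24 and 0.37. None of the 74 changes was called in the fit shown, which uses all 12 libraries and no replicate block.

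With the replicate number as a block, 10 of 37 were called in KYSE150, all of them lower, against 1.66% of all genes called lower and 6.7% called in either direction. They were 8 tRNA genes and 2 complex I genes. The titles state no pairing of same-numbered libraries, so calls with the block rest on a pairing taken from these same data. MT-TI had 1276, 1188 and 597 RPKM in controls and 578, 461 and 348 in silenced libraries, with no overlap (-1.09, SE 0.25, limma adjusted p = 0.0843 without the block; SE 0.11, 0.0118 with it). MT-TF had 1026, 1003 and 592 against 478, 510 and 407 (-0.87, limma adjusted p = 0.130 and, with the block, 0.0279). MT-TW had 814, 775 and 452 against 386, 402 and 337 (-0.82, limma adjusted p = 0.0770 and, with the block, 0.0260).

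Control replicate 3 lay nearest to the silenced group for all 3 of these tRNAs. The other tRNA genes called with the block were MT-TG (-0.85), MT-TT (-0.77), MT-TM (-0.62), MT-TQ (-0.59) and MT-TH (-0.41), with limma adjusted p from 0.0129 to 0.0439 with the block and from 0.0635 to 0.260 without. MT-TM had 166, 189 and 154 RPKM in controls and 114, 115 and 101 in silenced libraries. Its control replicate 3 was the lowest control too, but the gap to the silenced group was wider than the spread within that group.

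The 2 messages called with the block were MT-ND3 and MT-ND2. MT-ND3 had 3583, 3318 and 2449 RPKM in controls and 2584, 2165 and 1953 in silenced libraries, so the groups overlapped (-0.47, limma adjusted p = 0.166 and, with the block, 0.0355). MT-ND2 had 5433, 5599 and 4576 against 4408, 4072 and 3642, without overlap (-0.36, limma adjusted p = 0.147 and, with the block, 0.0458). MT-ND6 was at -0.48 (SE 0.17), MT-ND1 at -0.31 (SE 0.13) and MT-ND5 at -0.22 (SE 0.12), each lower in 3 of 3 pairs and none called. Complex IV genes lay on both sides of 0, with MT-CO1 at 0.29 (SE 0.11), MT-CO2 at 0.18 (SE 0.11) and MT-CO3 at -0.11 (SE 0.14), the last above 0 with quantile normalization or scaling to mitochondrial reads. The ATP synthase genes stood at -0.18 (MT-ATP8) and -0.06 (MT-ATP6), and MT-CYB at 0.01 (SE 0.09).

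The rRNAs were lower in 3 of 3 pairs without being called. MT-RNR1 had 787, 793 and 931 RPKM in KYSE150 controls and 693, 775 and 735 in silenced libraries (-0.19, SE 0.09). The control group did not overlap with the silenced group. MT-RNR2 was at -0.28 (SE 0.12), and its groups overlapped.

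By strand, 13 of 14 plus-strand tRNA genes were below 0 in KYSE150, with a median of -0.77, and 5 of 8 minus-strand tRNA genes were above 0, with a median of 0.09. The first count was 12 or 13 of 14 under each scaling tried. The second turned with centring of each library on its median, to 2 of 8 above 0. Of the 12 plus-strand protein genes 9 were below 0, a count that fell to 6 with scaling to mitochondrial reads and to 4 with quantile normalization. The change in KYSE150 and the difference between the control lines share the KYSE150 control libraries, so their values for a gene are not independent.

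Leaving out KYSE150 control replicate 3, singled out above on its values for these same genes, raised the count in KYSE150 from 0 to 12. All 12 were lower, against 1.76% of all genes. Over all genes, calls in either direction rose too, from 0.499% to 7.22%. MT-TI then stood at -1.44 (limma adjusted p = 0.00598), MT-TW at -1.09 (limma adjusted p = 0.00182), MT-ND6 at -0.71 (limma adjusted p = 0.0241) and MT-ND2 at -0.45 (limma adjusted p = 0.0383). Leaving out KYSE510 silenced replicate 2 gave 1 call, and leaving out any of the other 10 libraries gave 0. With voom and the block together 19 were called lower, against 4.32% of all genes, and 2 higher, against 13.5%. The greater depth of the silenced libraries moved with these differences, and its part in them was not tested.

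In KYSE510, no mitochondrial gene passed the test on silencing. By limma, 0 of 37 were called with or without the block, against 0.0393% of all genes without it and 0.112% with it, and 1 had an unadjusted p under 0.05, against 6.35%. Voom without the block called 0 too, as it did for the mean over lines and for the difference between lines. That gene was MT-RNR1, with 286, 342 and 334 RPKM in controls and 268, 265 and 278 in silenced libraries (-0.24, SE 0.09, limma adjusted p = 0.691). It was the 1 gene of 37 whose silenced libraries all lay below the controls, against 6.87% of all genes, and for 0 of 37 did they all lie above, against 5.22%. The median change was 0.04, against -0.02 over all genes, with 22 changes above 0. In same-numbered pairs 7 genes were higher in 3 of 3, as were 16.0% of all genes, and 4 lower, as were 21.8%.

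MT-TK had the largest change in KYSE510 and its direction was opposite to that in KYSE150. It stood at 1.03 (SE 0.56, limma adjusted p = 0.862), higher in 3 of 3 pairs, against -1.02 (SE 0.56, limma adjusted p = 0.354) in KYSE150, lower in 3 of 3. Its groups overlapped in both lines. Among the alternatives, voom with the block called MT-TK in both lines (limma adjusted p = 0.0173 in KYSE510, beside 2.14% of all genes, and 0.00575 in KYSE150). Leaving out 1 library moved the KYSE150 change between -1.63, without control replicate 3, and -0.65, without control replicate 1. Besides MT-TK, 5 genes were lower in 3 of 3 pairs of KYSE150 and higher in 3 of 3 pairs of KYSE510, namely MT-ATP8, MT-TG, MT-ND3, MT-ND5 and MT-ND6. With MT-TK that is 6 of 37, beside 2.4% of all genes. No mitochondrial gene showed the reverse, beside 7.79% of all genes.

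The difference of the changes between lines was tested as such. By limma it was called for 0 of 37, as for 0.0% of all genes both with and without the block, and 12 of the 37 had an unadjusted p under 0.05, beside 12.2% of all genes. The change was 2.05 higher in KYSE510 than in KYSE150 for MT-TK (SE 0.79, limma adjusted p = 0.394) and 1.19 higher for MT-TI (SE 0.36, limma adjusted p = 0.394). Without KYSE150 control replicate 3, 1 of the 37 was called, MT-TW (1.03, limma adjusted p = 0.0366), beside 0.0224% of all genes. With voom and the block 18 were called, beside 6.68% of all genes.

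The mean change over both lines was likewise called for 0 of 37 by limma, against 0.539% of all genes, and 7 had an unadjusted p under 0.05, against 11.5%. With the block 4 were called lower, against 0.679% of all genes. They were MT-TM (-0.41, limma adjusted p = 0.0140), MT-TI (-0.50, 0.0305), MT-TF (-0.54, 0.0441) and MT-TQ (-0.24, 0.0458). MT-TM was lower in 3 of 3 pairs of each line, and it is the tRNA gene of lowest mean RPKM.

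Nuclear chromosomes carry copies of mitochondrial DNA, and reads of near-identical copies are uncertain. By name 195 such copies were in the table, and they took 0.322% to 0.467% of reads. MTATP6P1 (chr1:633696-634376) had the most reads, at 2361 to 4368 RPKM. It matched MT-ATP6 at 98.5% of 681 bases, with 10 differences, and held 11.6% to 13.8% of the reads of both genes. The stretch below, bases 116 to 175 of MT-ATP6 counted from 1 at its first base, is shown because it holds 3 of those differences in 60 bases. Capitals mark C129T, A151C and A175G, where the mitochondrial base comes first.
MT-ATP6, MT:8642-8701, plus: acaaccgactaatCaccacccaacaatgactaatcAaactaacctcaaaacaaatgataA
MTATP6P1, chr1:633811-633870, plus: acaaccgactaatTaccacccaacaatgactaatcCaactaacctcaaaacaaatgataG
MTATP6P1 was 0.59 higher in KYSE510 controls (SE 0.09, limma adjusted p = 0.000169), beside 0.55 for MT-ATP6. MTND2P28, which matches MT-ND2 at 98.4%, held at least 15.4% of the reads of both genes and was -0.22 (SE 0.09, limma adjusted p = 0.0433), beside -0.30. MTCO1P12, at 98.7% identity to MT-CO1, held 3.35% to 5.29% and was 0.58 higher (SE 0.23, limma adjusted p = 0.0450), beside 0.49. How reads that match a gene and its copy were placed is not given in the sources used here.

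Nuclear genes make the proteins that copy, cut and stabilise mitochondrial RNA, and none of 5 lists of them was called by limma on silencing in either line. In KYSE150, counts at an unadjusted p under 0.05 were 3 of 14 for mitochondrial transcription and DNA maintenance, 1 of 4 for RNA processing, 0 of 15 for RNA stability and decay, 1 of 5 for nuclear regulators and 3 of 12 for abundant mitochondrial proteins. In KYSE510 they were 0, 0, 1, 1 and 1. Together these are 8 of 50 genes (16.0%) in KYSE150 and 3 of 50 (6.0%) in KYSE510, near the 18.1% and 6.35% of all genes. The list medians in KYSE150 were 0.02, 0.12, 0.08, 0.14 and 0.03, beside 0.08 over all genes.

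With the block, 3 of the 50 list genes (6.0%) were called in KYSE150, near the 6.7% of all genes, so the count does not set the lists apart. TFAM, which packages mitochondrial DNA and helps start its transcription, was higher (12.1 ± 0.470 RPKM in controls and 15.8 ± 1.35 in silenced libraries, SD, n = 3, 0.38 on the log2 scale, limma adjusted p = 0.0739 and, with the block, 0.0288). MTERF4, which acts in mitochondrial ribosome assembly, was lower (-0.36, limma adjusted p = 0.193 and, with the block, 0.0404). VDAC2, an outer membrane channel, was lower (-0.25, limma adjusted p = 0.0654 and, with the block, 0.0352).

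Between the control lines these lists held many called genes, as the whole table did, where 28.3% of all genes were called higher and 33.7% lower. At a limma unadjusted p under 0.05 were 31 of the 50 list genes (62.0%), beside 11719 of all 17823 genes, so the count does not set the lists apart. For transcription and DNA maintenance 2 of 14 were higher in KYSE510 and 8 lower, with a median of -0.36 against -0.07 over all genes. Lower were MTERF1, a termination factor (-1.37, SE 0.11), the helicase listed as C10orf2 and now named TWNK (-1.18, SE 0.09), and TFB2M, the transcription factor that opens the promoter (-1.10, SE 0.13). The DNA polymerase POLG was 0.65 higher (SE 0.06) and MTERF2 0.34 (SE 0.09).

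For RNA processing 3 of 4 were lower, against 33.7% of all genes, and none higher, with a median of -0.42. ELAC2, which cuts the 3′ end of tRNAs, had 29.3 ± 2.96 RPKM in KYSE150 controls and 16.5 ± 0.201 in KYSE510 controls (SD, n = 3, -0.81, limma adjusted p = 5.07e-06). The RNase P subunits TRMT10C (-0.53, SE 0.09) and KIAA0391, now PRORP (-0.31, SE 0.08), which cut the 5′ end, were lower too.

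For RNA stability and decay 4 of 15 were higher and 5 lower, near the all-gene shares of 28.3% and 33.7%, with a median of -0.07, the same as over all genes. LRPPRC, which stabilises mitochondrial messages, was 0.94 higher (SE 0.07), the RNA-binding protein GRSF1 0.73 (SE 0.09) and FASTKD2 0.71 (SE 0.16). ANGEL2 (-2.41, SE 0.08), the RNA exonuclease REXO2 (-1.34, SE 0.15) and PDE12, which removes poly(A) tails (-0.91, SE 0.11), were lower. Of the nuclear regulators 1 of 5 was higher (ESRRA, 0.49) and 2 lower (GABPA, -0.53, and PPRC1, -0.28). Of the abundant mitochondrial proteins 3 of 12 were higher (VDAC3, 0.91, HSPD1, 0.76, and PHB, 0.30) and 2 lower (TIMM23, -0.87, and TOMM22, -0.69).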

How the data were processed

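RNA-seq was measured in 12 libraries of 4 groups, with group and line from the labels and replicate number from the titles. The authors deposited RPKM for 38516 genes, with positions and summed exon length per the file headers. HISAT2, DESeq and GRCh38 are named in the submitters' processing notes, without versions or roles. The deposited RPKM times length was a whole multiple of 1 step per library for 100% of values (tolerance 0.05 reads), so reads were recovered, 20035025 to 28202422 per library. Counting error is small for genes with many reads, where the spread between libraries limits precision. It is not small for the lowest tRNA genes, MT-TM (110 to 264 reads) and MT-TQ (186 to 350).

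RPKM values were used as deposited, on the log2(RPKM + 0.5) scale, for the 17823 genes with at least 0.5 RPKM in at least 3 libraries. A fold change on this scale understates that of low genes. limma 3.58.1 in R 4.3.3 (lmFit, contrasts, eBayes with trend) was fitted with 4 group means to all 12 libraries (8 residual degrees of freedom), with two-sided p-values adjusted by Benjamini-Hochberg over all genes tested and a threshold of 0.05. The fit without a block was tested on simulated counts with the same dispersion for every gene. That test does not cover the replicate block or a library that stands apart.

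Same-numbered control and silenced libraries of a line deviated together, with correlations across genes of 0.15 to 0.42 in all 6 pairs against -0.39 to 0.18 for other numbers. In KYSE150, control replicate 2 went with silenced replicate 1 (0.18) more than with silenced replicate 2 (0.15). Deviations from a mean of 3 libraries are not independent, so these correlations are weak ground for a pairing. The titles number the replicates but state no pairing, so it was taken from these same data. The fit with a replicate block depends on it and has 4 residual degrees of freedom. Other alternatives were pseudocounts, no filter, scalings, voom on recovered reads and leaving out each library. The members and lists were chosen with earlier results of these data known. All protein and rRNA genes were to be named, with the 3 highest and 3 lowest tRNA genes, up to 6 called tRNA genes per contrast and their overlapping neighbours, up to 3 called genes of a list per direction, and the 3 nuclear copies with most reads. Other tRNA genes and the genes that only the replicate block calls were named after their values were seen. Sequences and overlaps were read from GENCODE 29 with Python 3.11.15, and copies aligned with Biopython 1.88.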

Additional observations from a re-analysis of the deposited data

How the results depend on the processing

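The alternatives changed how many mitochondrial genes were called more than which way they lay. With the replicate block, 10 were called in KYSE150 (10 too with the block and scaling to reads outside the mitochondrial genome, and 21 with voom and the block), and quantile normalization without a block called 1. Voom with the block called 1 in KYSE510. For the mean over lines the block gave 4, block with that scaling 5 and voom with the block 11, and for the difference between lines voom with the block gave 18. The pairing changed no other count of calls. Leaving out 1 library at a time gave 0 to 12 calls in KYSE150, 0 to 0 in KYSE510, 0 to 2 for the mean, 0 to 1 for the difference and 24 to 30 between control lines, with the 12, the 2 and the 1 all reached without KYSE150 control replicate 3. Without the rRNA genes, the mean mitochondrial share of reads was 7.65% and 7.05% in KYSE150 control and silenced libraries and 9.85% and 10.3% in KYSE510, and with nuclear copies added it was 11.0% in KYSE510 controls. No value that changed sign was called, and the cause was not tested. In KYSE150 quantile normalization gave MT-ND4 0.12, MT-ND4L 0.0678 and MT-CO3 0.24, and scaling to mitochondrial reads gave MT-ND4 0.0797, MT-CO3 0.0228 and MT-ATP6 0.0727. MT-CYB there was -0.12 with median centring and -0.0036 with scaling to other reads, with or without the block, and ran from -0.0096 to 0.0305 with 1 library left out. The change of MT-ND5, silenced against control in KYSE510, was -0.0277 with quantile normalization, and there MT-RNR2 ran from -0.13 to 0.0014 with 1 library left out. Between control lines MT-TW was 0.0069 with median centring, 0.0369 with quantile normalization and 0.009 with scaling to other reads, and MT-ATP8 was -0.15 with quantile normalization and -0.21 with scaling to mitochondrial reads. With 1 library left out there, MT-ATP8 ran from -0.0626 to 0.17, MT-ND3 from -0.26 to 0.0127, MT-ND5 from -0.16 to 0.04, MT-TL2 from -0.2147 to 0.0604, and MT-TW from -0.2941 to 0.1307, the last called at its low end, without KYSE150 control replicate 3. Mitochondrial genes hold the top ranks, so quantile normalization fixes the values of those ranks. Centring moved the median of all genes in KYSE150 from 0.08 to -0.05 and scaling to mitochondrial reads moved it to 0.19. They moved that of the difference between lines from -0.12 to 0.04 and to -0.26.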

Other observations

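Nuclear copies other than the 3 with most reads also differed between the lines. They were picked after their values were seen, and their values under the alternatives are not given here. MTCO2P22 (chr5:100052859-100053539), which matches MT-CO2 at 90.2%, had a mean of 0.115 RPKM in KYSE150 controls and 63.4 in KYSE510 controls (log2 difference 6.69, SE 0.12, limma adjusted p = 4.50e-12). It stood at 0.289 and 50.3 in the silenced groups of the same lines. The KYSE150 means lie under the 0.5 RPKM added before the log, so the size of the difference and its SE depend on that constant. MT-CO2 itself was 0.67 higher in KYSE510 controls.

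A block of copies on chromosome 5 between 134923303 and 134928036 was uneven. MTCYBP18 was 2.20 higher in KYSE510 controls (SE 0.18), MTND6P4 1.87 (SE 0.15) and MTND5P11 1.56 (SE 0.16), while MTND4P12, the next copy, was at -0.14 (SE 0.12, limma adjusted p = 0.303). Of the mitochondrial genes they match, MT-CYB, MT-ND6 and MT-ND5 were not called between the lines, while MT-ND4, matched by MTND4P12, was called higher. Without KYSE150 control replicate 3, MT-ND6 was called lower (-0.41).

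MTND1P23 (chr1:629062-629433), a copy of part of MT-ND1 with 99.2% identity over 363 bases, was lower on silencing in KYSE150, at 341.0 ± 42.1 RPKM in controls and 214.4 ± 18.5 in silenced libraries (SD, n = 3, log2 change -0.66, SE 0.11, limma adjusted p = 0.0253). MT-ND1 stood at -0.31 in the same comparison and was not called.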
